A study of Homo sapiens with 4 samples.

Results

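The primary cilium genes described here are 47 human genes that encode parts of the primary cilium and of the machinery that builds it. Each was represented by 1 Affymetrix probe set, the one with the highest mean log2 signal over the 4 arrays among the probe sets whose single annotated gene was the member or its alias. All 47 members had a probe set, out of 19740 named genes on the arrays. The signals themselves chose the probe sets, so levels are given as a description.

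The samples were lung adenocarcinoma cells in culture, with 1 array for each of 4 groups: CL1-0 transduced with a PSAT1 vector, CL1-0 with a control vector, CL1-5 with a short hairpin vector against PSAT1, and CL1-5 with a non-silencing hairpin vector. Every population carried a stable insert and had gone through 2 weeks of puromycin selection. The sources used here do not say whether they were clones or pools, or which promoter drove each insert. CL1-5 is a more invasive subline selected out of CL1-0. The study compared each PSAT1 manipulation with the control of the same line. PSAT1 is the aminotransferase of the serine synthesis pathway. With 1 array per group no test was possible, so "higher", "lower", "rose" and "fell" are used only where a pair of arrays differed at least 2-fold, a rule of size with no replicate check.

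The primary cilium is a single, immotile projection of the cell surface that grows from the mother centriole, mostly in cells that have left the cell cycle, and gathers receptors of hedgehog and other signals. Particles of the intraflagellar transport complexes IFT-B and IFT-A carry cargo along its microtubules, outward on kinesin-2 and back on cytoplasmic dynein 2. The BBSome, a complex named for Bardet-Biedl syndrome, moves membrane proteins out of the cilium, and the transition zone at its base acts as a gate. Loss of many of these proteins causes the inherited ciliopathies. Whether the cells studied here carried cilia was not measured.

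Many cilium genes are targets of RFX transcription factors, which bind a sequence called the X-box. The X-box consensus, with a spacer of 0 to 3 bases and on both strands, was therefore looked for between 250 bases before and 50 bases after each start site in RefSeq promoters of GRCh38.p14. Of the 47 members, 43 had a promoter there. An X-box stood in the promoters of 5 of the 43 genes (11.6%), against 317 of 15812 protein-coding genes (2.0%), and in 5 of 50 member promoters, against 331 of 22132 promoters of protein-coding genes (1.5%). The share was 4 of 14 (28.6%) in further IFT, motor and BBSome genes, 3 of 15 in further transition zone genes and 6 of 19 (31.6%) in markers of motile cilia. It was 0 of 16 in distal appendage and cilium initiation genes, 0 of 8 in ciliary membrane traffic genes and 0 of 9 in cilium disassembly genes. Hedgehog genes had 0 of 16, ciliary receptors and channels 0 of 6, and RFX factors 1 of 5. The 5 matches among the members are a sequence feature that their choice did not use. They are given here 5′ to 3′ on the strand of the gene with 15 bases on each side and the X-box in capitals. They lie at chr3:108222400-108222442 (IFT57, minus strand), chr3:129440197-129440241 (IFT122, plus strand), chr10:95694115-95694157 (TCTN3, minus strand), chr12:110614114-110614156 (TCTN1, plus strand) and chr17:19378078-19378121 (B9D1, minus strand, with the match on the opposite strand).
IFT57: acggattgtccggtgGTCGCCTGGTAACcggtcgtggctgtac
IFT122: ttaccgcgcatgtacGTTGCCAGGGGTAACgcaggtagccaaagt
TCTN3: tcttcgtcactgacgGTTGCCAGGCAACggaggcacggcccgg
TCTN1: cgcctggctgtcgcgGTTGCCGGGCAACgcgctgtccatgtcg
B9D1: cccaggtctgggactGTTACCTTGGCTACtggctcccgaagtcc
A match is a description of these letters and not a site shown to be bound. 3 of the 5 are genes of the transition zone (TCTN1, TCTN3 and B9D1), 1 is an IFT-B gene and 1 an IFT-A gene.

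The arrays of CL1-5 were dimmer than those of CL1-0. Median probe set signals were 53.2 with PSAT1 and 53.2 with vector in CL1-0, and 46.0 with the hairpin and 45.4 with the non-silencing vector in CL1-5. The pooled median, 49.0, served as a floor: lower signals were set to it, genes with at least 1 of a pair of arrays above it are called measured in that pair, and a fold against a floored array is a lower bound. PSAT1, which checks the labels, read 5494 with PSAT1 against 4214 with vector in CL1-0 (1.30-fold) and, in CL1-5, 143 in hairpin cells against 1760 in non-silencing cells, a 12.3-fold fall. The second PSAT1 probe set read 1617 against 1509 and 107 against 384 in the same pairs, so the gene was far lower with the hairpin, while the vector pair differed by less than 2-fold. Over all genes, 63.3% to 65.4% exceeded the floor on an array. Of 11 markers of type II alveolar cells, the cell type named in the labels, 8, 8, 9 and 9 exceeded the floor in the order of groups given above. The surfactant genes SFTPB and SFTPC were among them, at signals of 106 to 191 and 131 to 151, while SFTPD and SLC34A2 were below the floor on all 4 arrays.

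Nearly every member read above the floor on each array. Signals exceeded the floor for 46 members with PSAT1 and 46 with vector in CL1-0, and for 46 with the hairpin and 45 with the non-silencing vector in CL1-5, while over all genes the share was 63.3% to 65.4%. BBS5, a BBSome subunit, was below the floor on every array (36 and 36 in CL1-0 with PSAT1 and with vector, 38.7 and 29.9 in CL1-5 with the hairpin and the non-silencing vector), and IFT140, an IFT-A subunit, was near it everywhere (54.2 and 57.2, then 55.2 and 45.7). The median member signal was 526 with PSAT1 and 373 with vector in CL1-0, and 228 with the hairpin and 232 with the non-silencing vector in CL1-5.

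Genes of motile cilia exceeded the floor less widely. Of 23 markers of multiciliated cells, 9 exceeded the floor with PSAT1 and 11 with vector, and 9 with the hairpin and 10 with the non-silencing vector, and their summed signal was 1130 and 1140 in the CL1-0 pair and 929 and 922 in the CL1-5 pair. FOXJ1, the master regulator of motile cilia, read 48.0 and 52.9, then 62.1 and 56.8. HYDIN, SPAG6, SPAG17, RSPH4A and DNAI2, components of the motile axoneme, stayed at or under 17.9 on every array. The highest signal of the list was 125, for RSPH1 with PSAT1.

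Markers of other cell types were read as well. Of 5 fibroblast markers measured in the CL1-0 pair 2 fell with PSAT1, beside 1.0% lower of all measured genes. POSTN read 118 against 2154 with vector, and COL3A1 27.4 against 312 (at least 6.37-fold lower). The summed signal of the list's 7 markers was 532 with PSAT1 and 2910 with vector in CL1-0, and 482 with the hairpin and 464 with the non-silencing vector in CL1-5. In the same order 4, 5, 2 and 2 markers were above the floor, and DCN and LUM were below it on all 4 arrays. Of 9 immune and endothelial markers, 2, 2, 3 and 3 exceeded the floor, their summed signal was 245, 273, 360 and 433, and PTPRC stayed at or under 15.8. PECAM1, an endothelial adhesion molecule, was 2.15-fold higher in CL1-5 with the non-silencing vector than in CL1-0 with vector (150 against 69.9). The part of these markers in the cilium ratios was not tested.

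**Figure D1:**
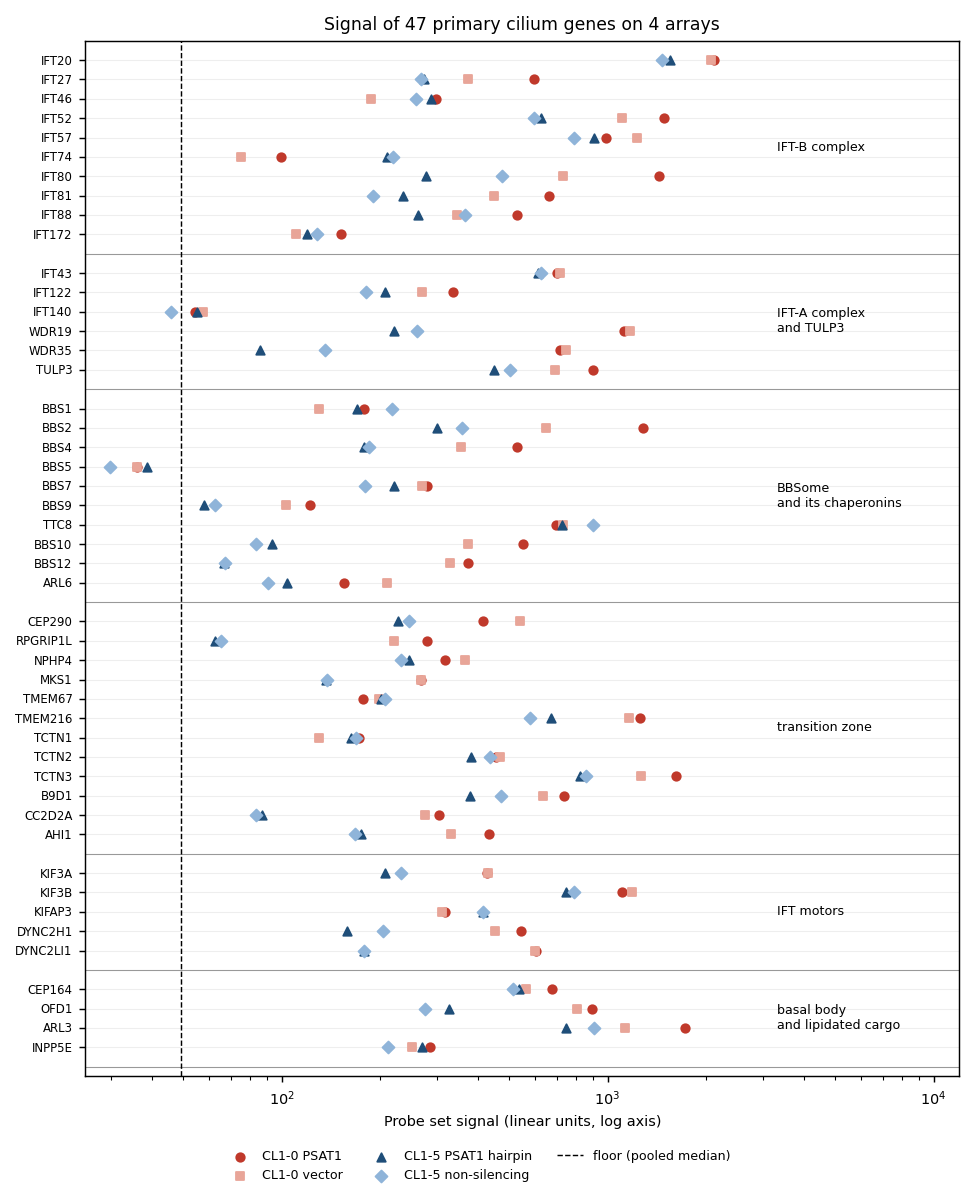
Signal of the 47 members (rows, grouped by role) on the 4 arrays, on a log axis in linear array units, with the floor of 49.0 dashed. Each point is 1 array. BBS5 lies left of the floor on every array, and for WDR19, WDR35, BBS10 and BBS12 both CL1-5 points lie well left of both CL1-0 points.

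In CL1-0 with PSAT1, none of the measured members reached a 2-fold difference, while most of the IFT-B members read somewhat above the vector array. Among the 46 measured members 0 were higher and 0 lower, beside 2.41% higher and 1.0% lower of 13167 measured genes. At 1.5-fold or more, 6 members read above the vector array and 0 below it, beside 8.97% and 4.05% of all measured genes. Log2 ratios were positive for 32 members and negative for 14 (69.6% positive, against 47.5% of all measured genes), and their median was 0.20 (quartiles -0.03 and 0.42), against -0.02 (quartiles -0.21 and 0.24) over all measured genes. Log2 ratios of probe sets of the same gene had an SD of 0.301 in this pair, which bears on the single genes below. PSAT1, culture, selection and labelling cannot be told apart in a pair of single arrays. In bulk RNA, a difference in the share of cells with a cilium and one in transcript per cell cannot be told apart either.

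Of the 6 role groups, IFT-B had the highest median in this pair. IFT-B forms the outward-moving train. Of its 10 subunits among the members, 9 had a positive log2 ratio, with a group median of 0.51. Further IFT genes outside the members, given below, ran from -0.26 (IFT56) to 0.80 (IFT70A). IFT80, a peripheral subunit, read 1443 with PSAT1 against 732 with vector (log2 ratio 0.98, 1.97-fold), and its second probe set read 1250 against 659 (0.92). IFT27, a small GTPase of the complex, read 594 against 373 (0.67). IFT46 read 298 against 189 (0.66) and IFT88, a core subunit required for cilium assembly, 526 against 344 (0.61). These 4 were the IFT-B members at 1.5-fold or more. IFT81 and IFT74, which together bind tubulin, read 661 against 449 (0.56) and 99.9 against 75 (0.41). IFT172, IFT52 and IFT20 had ratios of 0.45, 0.42 and 0.03. IFT20, which also sits at the Golgi, read 2121 against 2078. The exception was IFT57, at 986 with PSAT1 against 1232 with vector (-0.32), and its second probe set gave -0.30. The IFT-B median stayed between 0.38 and 0.61 under every alternative setting tried, with 8 or 9 of the 10 genes positive under the rescalings.

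The IFT-A complex, which serves the return leg and membrane entry, did not share this pattern. Its subunits IFT43, IFT140, WDR19 and WDR35 had ratios of -0.03, -0.08, -0.06 and -0.07, and only IFT122 (335 with PSAT1 against 270 with vector, 0.31) and TULP3 (905 against 689, 0.39) were positive. Other probe sets of the opposite sign gave -0.18 for IFT122, 0.16 (a bound) for IFT140, 0.05 for WDR19 and 0.08 for IFT43. TULP3 is the adaptor through which receptors enter the cilium. The group median was -0.05, and 0.01 or 0.06 in place of it when probe sets were averaged or those matching several transcripts were left out. A second WDR35 probe set read 187 against 316 (-0.76), so its probe sets differ in size. The motors mostly had ratios near 0. KIF3A, KIF3B and KIFAP3, the kinesin-2 subunits, had ratios of -0.01, -0.10 and 0.03, and DYNC2LI1, a dynein light intermediate chain, 0.01. DYNC2H1, the dynein 2 heavy chain, read 542 against 452 (0.26), and 194 against 107 (0.86) on a second probe set. KIF3B read 1109 with PSAT1 against 1185 with vector.

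BBSome genes were divided. BBS2, a subunit with 1 probe set, had the largest ratio of all members at 1281 with PSAT1 against 648 with vector (0.98, 1.98-fold). BBS4 read 527 against 356 (0.57) and its second probe set 444 against 309 (0.52). BBS10, a chaperonin-like protein that assembles the BBSome, read 551 against 372 (0.57), and BBS1 178 against 130 (0.45). BBS9, BBS12 and BBS7 had ratios of 0.25, 0.19 and 0.05, and TTC8 -0.08. A second BBS7 probe set gave -0.42. ARL6, the GTPase that recruits the BBSome to membranes, had the most negative ratio of all members, at 156 with PSAT1 against 211 with vector (-0.44), although its second probe set gave -0.05. The median of the 9 measured genes was 0.25.

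The 12 transition zone genes had a median of 0.13 and kept within 1.32-fold. TCTN1 read 173 with PSAT1 against 131 with vector (0.40), AHI1 433 against 332 (0.39), TCTN3 1619 against 1271 (0.35) and RPGRIP1L 280 against 222 (0.34). B9D1 (734 against 634), CC2D2A (305 against 275) and TMEM216 (1260 against 1166) had ratios of 0.21, 0.15 and 0.11. CEP290, a protein that links the microtubules to the membrane there, read 415 with PSAT1 against 538 with vector (-0.38), and NPHP4, TMEM67, TCTN2 and MKS1 had ratios of -0.20, -0.17, -0.04 and -0.00. Other probe sets of the opposite sign gave 0.59 for TMEM67, -0.30 for AHI1, -0.25 for B9D1 and 0.05 for TCTN2. A second CC2D2A probe set read 120 against 58.0 (1.05), so its probe sets disagree on the size of the difference. ARL3, the GTPase that releases lipidated cargo inside the cilium, read 1728 with PSAT1 against 1130 with vector (0.61, 1.53-fold), but its 2 other probe sets gave -0.27 and 0.25. The 5 genes with an X-box had ratios of -0.32 (IFT57), 0.31 (IFT122), 0.35 (TCTN3), 0.40 (TCTN1) and 0.21 (B9D1). CEP164, a distal appendage protein, INPP5E, a ciliary phosphoinositide phosphatase, and OFD1, a centriolar protein, had ratios of 0.26, 0.18 and 0.15. The 2 other CEP164 probe sets gave -0.06 and -0.51.

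Of the 31 members with another measured probe set in the CL1-0 pair, 20 had only probe sets of the same sign and 11 had at least 1 of the opposite sign. Of the 6 members at 1.5-fold or more, IFT80 and IFT27 had another measured probe set with a like ratio (IFT27 0.65, a bound), ARL3 did not, and IFT46, IFT88 and BBS2 had no other measured one.

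In CL1-5 with the PSAT1 hairpin, cilium genes were close to their control values apart from IFT80 and WDR35. Among the 46 measured members 0 were higher and 0 lower, beside 0.389% higher and 0.405% lower of 12852 measured genes. At 1.5-fold, 0 members read above the non-silencing array and 2 below it, beside 1.67% and 2.12% of all measured genes. The median log2 ratio was -0.03, against 0.02 over all measured genes, with 19 positive and 26 negative. The SD between probe sets of a gene was 0.179 in this pair.

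IFT80 had the most negative ratio of all members, at 278 in hairpin cells against 476 in non-silencing cells (-0.77, 1.71-fold), and its second probe set read 218 against 404 (-0.89). WDR35, an IFT-A subunit, read 86.0 against 136 (-0.66), but its second probe set read 59.4 against 61.8 (-0.06). IFT88 read 261 in hairpin cells against 364 in non-silencing cells (-0.48). DYNC2H1 read 158 against 205 (-0.37), BBS1 170 against 218 (-0.36) and B9D1 378 against 471 (-0.32). These are the most negative members of the motors, the BBSome genes and the transition zone. The 2 other measured BBS1 probe sets, however, gave 0.07 and 0.17, and the 2 other B9D1 probe sets gave -0.14 and 0.06.

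On the other side of 0, INPP5E read 270 in hairpin cells against 213 in non-silencing cells (0.34) and IFT81 237 against 191 (0.31). BBS7 (221 against 180), OFD1 (327 against 275) and TMEM216 (672 against 577) had ratios of 0.30, 0.25 and 0.22. TULP3 read 448 against 502, ARL3 745 against 911, TCTN1 164 against 169, TCTN3 823 against 861, KIF3B 747 against 789, IFT57 909 against 791 and IFT20 1552 against 1470, all within 1.22-fold. Group medians were 0.05 for IFT-B, -0.10 for IFT-A with TULP3, -0.05 for the BBSome genes, -0.04 for the transition zone, -0.08 for the motors and 0.15 for the 4 genes of the basal body and lipidated cargo. Most of these medians are close to 0, and the sign of 2 of them turned under an alternative: IFT-B came to -0.01 or -0.06 with probe sets averaged or multi-transcript probe sets left out, and the transition zone to 0.01 under quantile normalization. Among 24 members with another measured probe set, 14 had only the same sign and 10 at least 1 of the opposite sign.

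**Figure D2:**
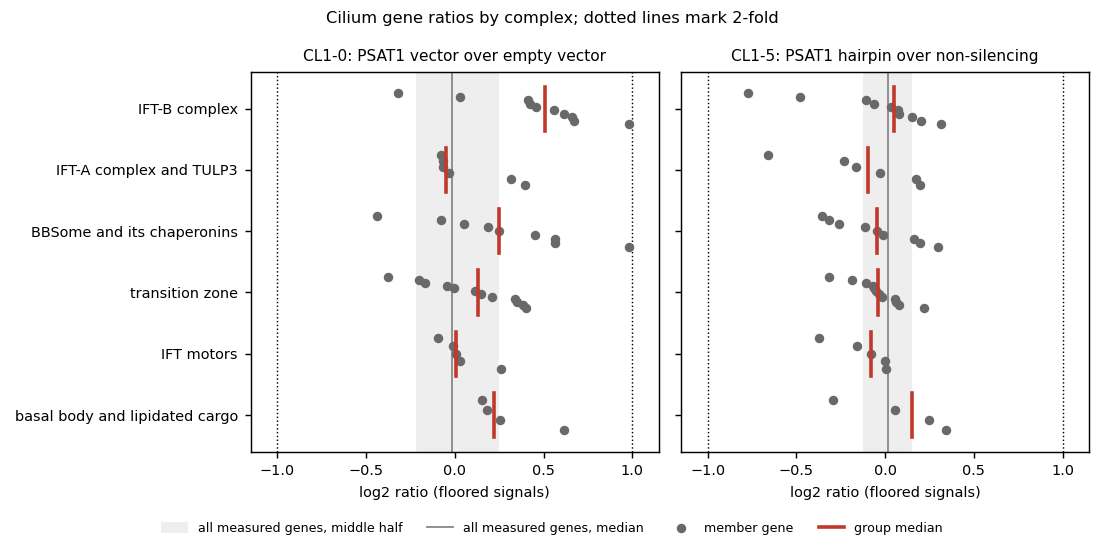
Log2 ratios of the measured members by role group (points), with the group median in red, for the CL1-0 pair (left) and the CL1-5 pair (right). The grey band and line are the interquartile range and the median of all measured genes, and dotted lines mark 2-fold. The IFT-B median of 0.51 lies right of the grey band in the CL1-0 pair, and no point passes a dotted line in either pair.

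The PSAT1 vector and the hairpin share no array, so their ratios may be set side by side. Of the 46 members measured in both pairs, 20 had opposite signs (43.5%), beside 56.3% of 11999 genes. They were positive in CL1-0 with PSAT1 and negative in CL1-5 with the hairpin for 16 members (34.8%, against 25.4% of all genes) and the reverse for 4. Another 15 were positive in both pairs and 10 negative in both. Members thus did not have opposite signs more often than genes did on the whole.

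IFT80 stood out among the members, since it had the second largest positive ratio in one pair (0.98) and the most negative in the other (-0.77), with both of its probe sets above the floor agreeing in each. The annotation also holds a readthrough transcript, TRIM59-IFT80, whose signal cannot be told apart from that of IFT80 here. IFT88 followed with 0.61 and -0.48, and BBS1 and ARL3 had 0.45 with -0.36 and 0.61 with -0.29. Of the genes listed around the members, TTBK2, LZTFL1 and PTCH1 rose in CL1-0 with PSAT1 and had a negative ratio of at least 1.5-fold in CL1-5 with the hairpin. Of all measured genes 2.41% met the first rule and 2.12% the second. The share that met both was not computed, so these genes are named as single cases only. TTBK2, the kinase that clears a cap from the mother centriole to start a cilium, rose 2.48-fold with PSAT1, at 223 against 90.2 with vector. It read 66.2 in hairpin cells against 104 in non-silencing cells (-0.65). Its 2 other probe sets above the floor gave 1.33 and 1.19 in the CL1-0 pair and bounds of -0.997 and -0.512 in the CL1-5 pair. LZTFL1, which controls BBSome entry, rose 2.02-fold (797 with PSAT1 against 395 with vector) and read 192 in hairpin cells against 311 in non-silencing cells (-0.70), but its second probe set gave only 0.11 and -0.23. PTCH1, the hedgehog receptor and itself a target of the pathway, rose 2.45-fold (827 with PSAT1 against 338 with vector) and read 46.3 in hairpin cells against 76.3 in non-silencing cells (-0.64, a bound). A second PTCH1 probe set gave a bound of 0.61 in the CL1-0 pair and another gave 0.11 in the CL1-5 pair. These genes were singled out after their values were seen. None of the 4 reached 2-fold in CL1-5, and LZTFL1 fell short of it in CL1-0 under quantile normalization (0.95) and median centring (0.94).

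**Figure D3:**
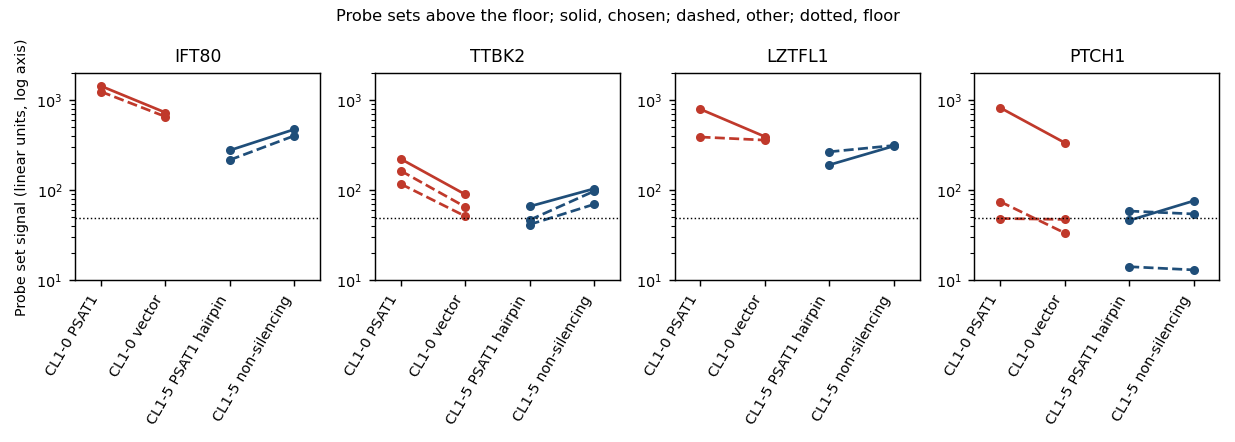
Signal of IFT80, TTBK2, LZTFL1 and PTCH1 on the 4 arrays (log axis, linear array units, 1 array per point), with the chosen probe set solid, other probe sets above the floor on at least 1 array dashed, and the floor dotted. All drawn probe sets of IFT80 and TTBK2 read more with PSAT1 than with vector and less with the hairpin than with the non-silencing vector, while those of PTCH1 do not all do so.

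Between the lines, many cilium transcripts read lower in CL1-5 than in CL1-0, as did genes in general on these arrays. In CL1-5 with the non-silencing vector against CL1-0 with the control vector, 1 of 46 measured members was higher and 13 were lower, beside 5.14% higher and 24.7% lower of 13706 measured genes. The member median was -0.60, against -0.48 over all measured genes. This comparison uses the control array of each manipulation, and line and vector type cannot be told apart in it.

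Several members fell far more than the shift. WDR35 read 136 in CL1-5 against 746 in CL1-0 (log2 ratio -2.46, 5.48-fold lower), and its second probe set 61.8 against 316 (-2.35). WDR19, its partner in the IFT-A complex, read 260 against 1173 (4.50-fold lower). The chaperonin-like BBS12 and BBS10 read 67.1 against 328 (4.88-fold lower) and 83.5 against 372 (4.46-fold lower). RPGRIP1L, a scaffold of the transition zone, read 65.3 against 222 (3.39-fold lower) and CC2D2A, a further gate protein, 83.4 against 275 (3.29-fold lower). DYNC2LI1 read 179 against 599 (3.35-fold lower), and its other measured probe sets gave -2.30 and -1.59. These 7 of the 46 measured members remained 2-fold lower under quantile normalization and under median centring. Of all measured genes 8.87% and 8.59% were lower under these rescalings. CC2D2A and RPGRIP1L did not with the mean over probe sets. When multi-transcript probe sets were left out, CC2D2A rested on a second probe set with a bound of only -0.24. RPGRIP1L was then not measured, as its other probe set was below the floor on every array. In each of the 7 members both CL1-5 arrays lay below both CL1-0 arrays on the chosen probe set. The 7 were picked on the control arrays, so this order is a description only. The manipulated arrays are not replicates of the lines.

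The other 6 falls did not reach 2-fold under either rescaling. OFD1 (275 in CL1-5 against 805 in CL1-0, -1.55), IFT81 (191 against 449, -1.24), ARL6 (90.7 against 211, -1.22), DYNC2H1 (205 against 452, -1.14), CEP290 (246 against 538, -1.13) and TMEM216 (577 against 1166, -1.01) lay between -0.29 and -0.93 there. A second CEP290 probe set had the opposite sign (0.65), as did one of KIF3A (0.52 beside -0.89 for the chosen one). IFT74 was the only member 2-fold higher as deposited, at 220 in CL1-5 against 75 in CL1-0 (1.55, 2.93-fold), and it reached 2.0 and 2.17 under quantile normalization and centring, but 0.78 with the mean over probe sets. Both rescalings added BBS1 (218 against 130, 0.74 as deposited) and KIFAP3 (414 against 310, 0.42) to the higher members. Quantile normalization also added TTC8 (0.30 as deposited), and centring IFT46 (0.45). The 32 measured members short of 2-fold as deposited ran from AHI1 at -0.98 to BBS1 at 0.74.

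By role, the medians as deposited were -0.49 for IFT-B, -0.51 for IFT-A with TULP3, -0.85 for the BBSome genes, -0.80 for the transition zone, -0.89 for the motors and -0.27 for the basal body group. The IFT medians lay close to the general shift of -0.48, those of the BBSome, transition zone and motor genes below it, and that of the basal body group above it. Quantile normalization, which left all genes at a median of 0.00, gave 0.19, -0.07, -0.38, -0.17, -0.29 and 0.36 in the same order, so that the sign of the IFT-B and basal body medians turned, and median centring also turned that of IFT-A with TULP3 (0.10). The motors were themselves split, since KIFAP3 had a ratio of 0.42 where KIF3A, KIF3B, DYNC2H1 and DYNC2LI1 had -0.89, -0.59, -1.14 and -1.75. Of 29 members with another measured probe set, 23 had only the same sign. The SD between probe sets of a gene was largest here, at 0.585.

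**Figure D4:**
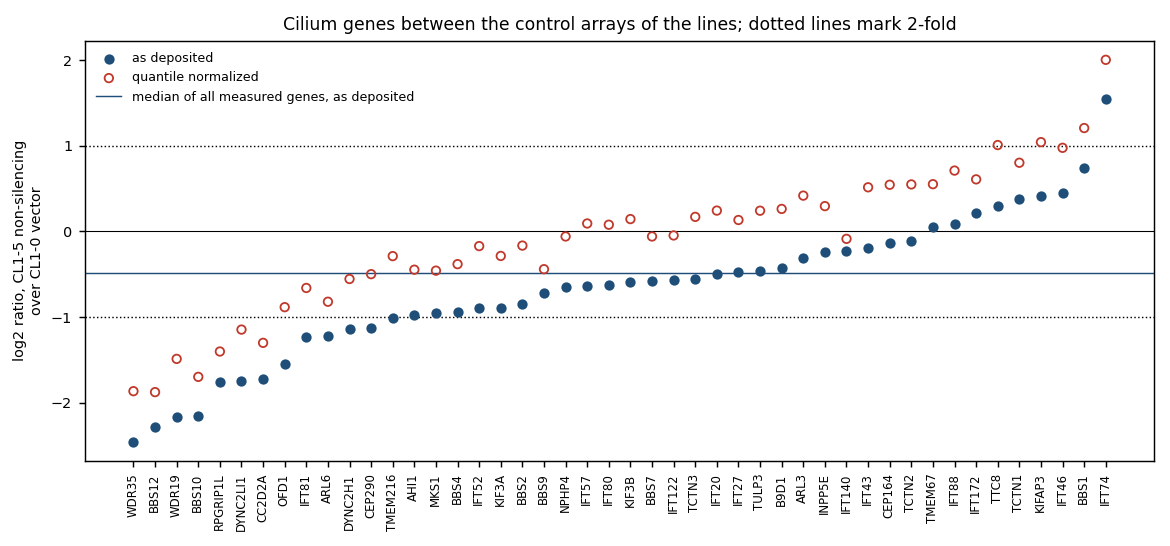
Log2 ratio of each measured member between the control arrays, CL1-5 non-silencing over CL1-0 vector, as deposited (filled) and after quantile normalization (open), ordered by the deposited value. The horizontal line at -0.48 is the median of all measured genes as deposited, and dotted lines mark 2-fold. The members run from WDR35 at -2.46 to IFT74 at 1.55.

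Other genes of the cilium were read from lists around the members. Their counts in the CL1-0 pair, here and below, stand beside 2.41% higher and 1.0% lower of all measured genes. In the CL1-0 pair, 1 of 15 further IFT, motor and BBSome genes rose (LZTFL1, above), with a list median of 0.16. IFT70A and IFT70B, near-identical paralogs whose probe sets may share signal, read 150 against 86.1 (0.80) and 147 against 92.6 (0.66). Other IFT genes of this list had smaller or negative ratios: IFT22 0.34, TRAF3IP1 0.18, CLUAP1 0.16, IFT25 -0.12 and IFT56 -0.26. Among 14 measured further transition zone genes 0 changed by 2-fold, and TMEM17 had the largest positive ratio (310 with PSAT1 against 202 with vector, 0.62). Of 15 genes of the distal appendages and of cilium initiation 2 rose with PSAT1: TTBK2 and CEP19, a centriolar protein, at 422 against 205 (1.04), with a second probe set at 1.36. CEP19 came to 0.90 and 0.97 under quantile normalization and centring. CYS1, a ciliary membrane-associated protein known from a mouse model of cystic kidney, rose at least 5.47-fold, at 268 with PSAT1 against 48.0 with vector, and was the only one of 11 genes of ciliary membrane traffic to do so.

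Genes that dismantle the cilium were positive in 6 of 8 measured cases with PSAT1, beside 47.5% of all measured genes. Their median was 0.34, and none of them was at 2-fold. TCHP, a keratin-binding activator of the kinase AURKA, had the largest ratio of these (296 against 162, 0.87), but a second probe set gave 0.11. In the CL1-5 pair their median was -0.20, with NDE1, which limits cilium length, at 439 in hairpin cells against 657 in non-silencing cells (-0.58). Of 14 measured hedgehog genes only PTCH1 rose in CL1-0, and the list median was 0.01. Among the RFX factors, RFX7 read 2387 with PSAT1 against 1635 with vector (0.55), and 279 in hairpin cells against 337 in non-silencing cells (-0.27). RFX5, known for its part in MHC class II expression, read 2269 against 1723 (0.40) and 345 against 402 (-0.22). The RFX medians were 0.38 over 5 measured genes in CL1-0 and -0.25 over 4 in CL1-5.

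In the CL1-5 pair, 0 genes of these cilium, hedgehog, receptor and RFX lists reached 2-fold, beside 0.389% higher and 0.405% lower of all measured genes. The largest ratios of the lists not yet named were 0.58 for TUB, a tubby family protein (482 in hairpin cells against 324 in non-silencing cells), -0.39 for CEP41, 0.40 for PKD1 and -0.45 for RFX1.

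Between the lines, 4 of 10 measured genes of ciliary membrane traffic and 3 of 5 measured RFX factors were lower in CL1-5, and 0 of either list higher, beside the 24.7% and 5.14% of all measured genes. Under each rescaling 2 of the 10 and 2 of the 5 were lower, and 1 RFX factor was higher. Of all measured genes 8.87% and 8.59% were lower under quantile normalization and centring, and 9.40% and 10.1% higher. TBC1D32, which acts in cilium structure in the mouse, read 102 in CL1-5 against 981 in CL1-0 (9.63-fold lower), and its second probe set gave -2.29. The GTPase RAB8A (1024 against 2761), its exchange factor RAB3IP (149 against 480) and RAB23 (887 against 2152), which restrains hedgehog signalling in the mouse, were 2.70-fold, 3.22-fold and 2.43-fold lower as deposited. Under both rescalings RAB3IP remained 2-fold lower, RAB8A and RAB23 not. RFX7 was 4.86-fold lower (337 against 1635) and RFX5 4.28-fold (402 against 1723), with their second probe sets at -1.17 and -1.37. RFX3, a factor of cilium genes, was at least 2.09-fold lower (43.7 against 103), but not 2-fold lower under either rescaling (-0.94 and -0.62). RFX1 (213 against 305) had a ratio of -0.52 and RFX2 (116 against 75.9) one of 0.62. Of 15 further IFT, motor and BBSome genes 4 were lower: IFT56 (-1.66), DYNLT2B (-1.41), DYNC2I1 (-1.25) and TRAF3IP1 (-1.17). IQCB1 (-1.52), SDCCAG8 (-1.17) and RPGR (-1.02) fell among 15 measured further transition zone genes. CEP97 (-1.07) and C2CD3 (-1.07) fell among 15 initiation genes, and DVL2 (-1.02) among 9 measured disassembly genes. The share of all measured genes that were lower was 24.7%. Of these 10, only IFT56 kept 2-fold under both rescalings.

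Hedgehog genes went both ways between the lines, with 3 higher and 3 lower of 14 measured, beside 5.14% higher and 24.7% lower of all genes. PTCH1 was 4.43-fold lower in CL1-5 (76.3 against 338), KIF7, a kinesin that organizes the cilium tip, 2.49-fold lower (144 against 359), and GLI1 at least 2.16-fold lower (47.9 against 106). Of these 3 falls only that of PTCH1 kept 2-fold under both rescalings, and a second PTCH1 probe set gave 0.16. GPR161, a ciliary receptor that restrains the pathway, was 3.15-fold higher (222 against 70.6), the transcription factor GLI3 2.63-fold (232 against 88.0) and the co-receptor BOC 2.10-fold (144 against 68.5). TCHP (564 against 162), EHD1 (735 against 287), which shapes the ciliary vesicle, and the somatostatin receptor SSTR3 (163 against 73.3) were 3.48-fold, 2.56-fold and 2.23-fold higher. Each was the only higher gene of its list, at 1 of 9, 1 of 15 and 1 of 3 measured. A second TCHP probe set gave 0.91, short of 2-fold.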

How the data were processed

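Total RNA of 4 cell populations, 1 array each, was hybridized to one-colour Affymetrix arrays, with cRNA made from 6 ug of RNA per the labels' protocols. The deposited values are linear intensity, 1 per probe set and array, made by the authors with MAS5, per the submitters' processing notes. The sources used here give neither its version nor its scaling target, and detection calls were not used. Of 54675 probe sets 62 were controls. The platform annotation gave 1 gene to 41097 probe sets, several to 1801 (which named no gene) and listed none for 11777. Symbols were updated through a human reference table for 41043. The 59 probe sets of Y-linked or X inactivation genes were dropped. At 1260 probe sets of the CL1-0 pair and 1749 of the CL1-5 pair both arrays held the same deposited value.

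Signals were floored at the pooled median (49.0) of non-control probe sets, and log2 ratios were taken for CL1-0 PSAT1 over vector, CL1-5 hairpin over non-silencing, and CL1-5 non-silencing over CL1-0 vector. A called difference was 2-fold or more. Precision is limited by the number of arrays, and no p-value or SD over samples exists. Of the 47 members 35 had more than 1 probe set, and 21 chosen probe sets may match several transcripts. Alternatives were quantile normalization, centring each array on the median of those probe sets that exceeded the floor everywhere, floors at the 25th and 65th percentile, the mean over a gene's probe sets, and leaving out multi-transcript probe sets.

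The members and gene lists were chosen with earlier results of these data known. Values on every array are given for PSAT1, members at 2-fold in any comparison, the member with the largest ratio per role group and comparison, and the 5 members of highest mean signal. From other lists at most 4 genes at 2-fold per comparison were named, or the largest if none. BOC, GLI1, IFT70A, IFT70B, IFT22, IFT25, CLUAP1, second probe sets and the other named members were chosen after their values were seen. Some listed genes are not reported here. The scripts were tested on simulated data and ran in Python 3.11.15 with pandas 2.3.3, numpy 2.4.6 and matplotlib 3.10.9. Promoter sequences are RefSeq's.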

Additional observations from a re-analysis of the deposited data

How the results depend on the processing

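No paired analysis was possible because each group holds 1 array, and no array could be left out of a group. In both manipulations, 0 members reached 2-fold in either direction under every alternative, except 1 higher in CL1-0 with PSAT1 when multi-transcript probe sets were left out (CC2D2A, through its second probe set). The member median in CL1-0 with PSAT1 stayed between 0.13 and 0.20, and in CL1-5 with the hairpin between -0.05 and 0.00. For CL1-5 non-silencing over CL1-0 vector, 4 members were higher and 7 lower under quantile normalization (all genes 9.40% and 8.87%), again 4 and 7 under median centring (10.1% and 8.59%), and 0 and 7 with the mean over probe sets, against 1 and 13 as deposited. The median there was 0.0103 under median centring, against 0.09 over all genes. The rescalings bear on this because the deposited arrays of CL1-5 are dimmer. The mean over probe sets takes in floored probe sets, and one below the floor on both arrays of a pair enters with a log2 ratio of 0. How much this adds to the lost calls was not tested. For the genes that the naming rule took in a comparison, 404 of 481 recomputed ratios stayed on their side of 2-fold and 77 fell below it, and no ratio of 2-fold or more changed sign. The 404 include ratios that were already short of 2-fold and stayed so. The 77 losses could come only from the 2-fold calls, so their share among those calls is larger than among the 481. Ratios short of 2-fold did change sign under quantile normalization, such as IFT57 (-0.64 as deposited, 0.09) and IFT20 (-0.50, 0.24) between the lines and BBS7 (0.05, -0.05) and KIFAP3 (0.03, -0.05) in CL1-0. With the mean over probe sets, IFT74 lost its 2-fold call between the lines, as did CC2D2A, CEP290, DYNC2H1, IFT81, OFD1 and RPGRIP1L. Signal near the floor limits what can be said of BBS5 and IFT140.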
